A study of Mus musculus with 20 samples.

Results

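The genes described here encode the subunits of the proteasome, the protease complex that degrades ubiquitin-tagged proteins. They were chosen by name: every gene whose current symbol is Psma, Psmb, Psmc or Psmd followed by a number, except the interferon-inducible Psmb8, Psmb9 and Psmb10, on a probe set that the platform annotation assigns to a single gene. This gave 34 of the 17097 genes with such a probe set, 16 of them in the 20S core (Psma and Psmb) and 18 in the 19S cap (Psmc and Psmd). Where a gene had several probe sets, the one with the highest mean signal over all arrays stood for it. A filter on low signal left 32 of the 34 among the 12944 genes tested, 14 of the core and 18 of the cap. The 2 that failed it were Psma8 (mean log2 signal 4.44) and Psmb11 (4.43), the core subunits restricted to testis and thymus, respectively, both under the filter's limit of 4.81. Psmc6 and Psmd10 were not analysed here.

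The cells were SV40-immortalized mouse embryonic fibroblasts in which both AMPK catalytic subunit genes, Ampkα1 and Ampkα2 (Prkaa1 and Prkaa2), were deleted, so every group, the control included, carries the double knockout. AMPK is the kinase that senses low cellular energy, and AICAR is an adenosine analog that cells convert to an AMP mimic and that is commonly used to activate it. Dishes received 1 mM AICAR for 1, 2, 4, 8, 12 or 24 h and were compared with control cells without AICAR at 0 h. RNA was hybridised to Affymetrix mouse arrays, 3 for the control, 2 at 8 h and 3 at each of the other times, 20 in all. The design asks how each time in AICAR changes gene expression when AMPK is missing. Because the only control was taken at 0 h, hours in AICAR and hours in culture cannot be told apart, and all differences from 0 h share the same 3 control arrays. Separate cultures are not stated in the labels for arrays of one group, and the spread behind each p-value may therefore be technical.

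Each 26S proteasome is a 20S barrel closed by caps. The barrel stacks rings of alpha subunits, which gate the entry, around rings of beta subunits, of which Psmb5, Psmb6 and Psmb7 carry the proteolytic sites. The 19S cap has a base, with the unfolding ATPases (Psmc genes), the scaffolds Psmd1 and Psmd2 and the ubiquitin receptor Psmd4, and a lid, where Psmd14 removes the ubiquitin chain before the substrate enters. Subunit genes are known to be induced together by the transcription factor NRF1 (Nfe2l1) through antioxidant response elements when proteasome activity falls short, and interferon replaces the proteolytic subunits with Psmb8, Psmb9 and Psmb10.

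The promoters of the subunit genes are shown first, as a description of their sequence. Matches of letters cannot tell whether the members share the elements through which such coordinated induction runs. RefSeq promoter windows (GRCm38.p6) of 250 bases before to 50 after the gene start were given for 26 of the 32 tested members, with none for Psmb1, Psmb2, Psmb7, Psmc3, Psmd3 and Psmd7. Both strands were searched for the antioxidant response element core TGACNNNGC, the box CCAAT and the interferon-stimulated response element pattern GAAANNGAA. TGACNNNGC was found for 4 of the 26 genes, Psmb5, Psmb6, Psmd9 and Psmd12, which is 14.3% of the members' 28 windows beside 12.4% of all 32851 windows. CCAAT was found for 10 of the 26 genes, in 35.7% of the members' windows and 37.4% of all windows. GAAANNGAA was found for 5 of the 26, Psmb3, Psmb4, Psmc2, Psmd4 and Psmd9, in 17.9% of the members' windows and 8.56% of all. These shares describe letters in the windows and show no binding. The 250 bases before the start are printed 5′ to 3′ on the gene's strand for Psmb5, Psmd4 and Psmd14. The proteolytic subunit gene Psmb5 holds a match of TGACNNNGC, Psmd4 rose at 12 and 24 h, and Psmd14 fell at 24 h. Capitals mark the matches of these patterns, read on either strand. The Psmb5 stretch is chr14:54617996-54618245 on the minus strand, that of Psmd4 is chr3:95042615-95042864 on the minus strand, and that of Psmd14 is chr2:61711444-61711693 on the plus strand.
Psmb5: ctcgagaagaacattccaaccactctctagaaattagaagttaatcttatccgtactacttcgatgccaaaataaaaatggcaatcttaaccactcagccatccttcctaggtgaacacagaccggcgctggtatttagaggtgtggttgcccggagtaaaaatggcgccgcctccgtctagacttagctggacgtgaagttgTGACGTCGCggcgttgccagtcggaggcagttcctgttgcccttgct
Psmd4: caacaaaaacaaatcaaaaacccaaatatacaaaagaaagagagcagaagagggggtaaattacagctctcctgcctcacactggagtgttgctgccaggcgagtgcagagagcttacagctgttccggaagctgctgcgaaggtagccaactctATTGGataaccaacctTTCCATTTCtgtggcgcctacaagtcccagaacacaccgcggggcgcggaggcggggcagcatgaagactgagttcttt
Psmd14: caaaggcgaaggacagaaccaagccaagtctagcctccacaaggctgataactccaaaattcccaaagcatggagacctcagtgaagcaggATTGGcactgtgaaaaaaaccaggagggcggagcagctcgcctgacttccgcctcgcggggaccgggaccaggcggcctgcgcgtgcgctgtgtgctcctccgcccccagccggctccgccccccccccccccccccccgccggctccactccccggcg
In the Psmb5 stretch the match TGACGTCGC starts at position -47 from the gene's first base. In that of Psmd4, ATTGG, which reads as the box on the opposite strand, starts at -95 and TTCCATTTC (GAAANNGAA on the opposite strand) at -79. In that of Psmd14, ATTGG starts at -159, and its window holds further matches at 4 and 7, on opposite strands, that overlap each other. Of the 3 members that rose at 24 h, none held TGACNNNGC, 1 held CCAAT and 1 held GAAANNGAA (Psmd4 for both). Of the 4 that fell, 3 had a window, of which none held TGACNNNGC or GAAANNGAA and 1 held CCAAT. Groups of 3 windows are too small to set beside the shares over all windows.

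Signal is given on the log2 scale as deposited, so a difference of 1 is a doubling. Of the single-array values of the 23 non-specific control probe sets, 95% lay at or under 5.08. The group means of the 32 tested members lay between 8.85 (Psmd9 at 12 h) and 12.02. Array medians lay within 0.159 of each other. The array AICAR 1h replicate 3 stood apart at the bright end, with a 99th percentile of 11.8 against 12.0 to 12.1 in the other 19, and its subunit gene signals were low with it. For RNA quality, the actin probe sets at the 3′ end exceeded those at the 5′ end by 0.383 to 0.458 in the controls and by 0.503 to 0.557 at 24 h. At the other times this excess ran from 0.389 (at 2 h) to 0.689 (at 4 h), with 0.646 in 1 array at 8 h. The part of RNA quality in the differences from 0 h was not tested. The deleted genes still gave signal, between 7.92 and 8.36 for Prkaa1 and between 5.42 and 6.98 for Prkaa2 over the 20 arrays. Whether their probes lie in the deleted parts is not known here, and these values do not check the genotype. Among fibroblast markers, Vim, S100a4 and Fn1 had control means of 13.2, 12.5 and 11.8, whereas those of Col1a2 (4.23) and Thy1 (4.94) lay under 5.08. Of 9 fibroblast markers tested, 3 (33.3%, beside 14.6% of all genes) fell at 24 h: Fn1 by 0.30, Pdgfrb by 0.25 and Thy1 by 0.22. None was called higher than at 0 h, though Col3a1 differed by 0.28. From 12 to 24 h Col3a1 rose by 0.69, past the test. Of 3 endothelial markers tested, 1 (33.3%, beside the same 14.6%) fell at 24 h, Kdr by 0.27. Of the 6 markers of macrophages, 3 were tested, and 1 (33.3%, beside 25.8% of all genes) rose at 24 h. It was the lysosomal gene Cd68, from a control mean of 4.77 to 5.85. Csf1r, a receptor gene, fell at 12 h (-0.25) and was -0.21 from 0 h at 24 h, not past the test. Ptprc, Lyz2 and Itgam stayed under 5.08 at every time. The summed log2 level of these 6 was 27.3 to 27.7 in the controls and 28.0 to 28.9 at 24 h. Cd68 alone rose by 1.08, and the other markers went both ways. From control to 24 h the mean of Ptprc went from 4.05 to 4.15, of Lyz2 from 3.86 to 3.93, of Adgre1 from 4.83 to 4.82 and of Itgam from 4.24 to 4.20. The epithelial keratin gene Krt19 had a control mean of 9.82, fell by 0.28 at 4 h, rose by 0.32 at 12 h and fell by 0.28 at 24 h. Whether these marker changes have a part in the results below was not tested, and in bulk RNA fewer cells of a type and less RNA per cell cannot be told apart.

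Over the 7 time groups the subunit genes changed little, and most of those that changed were cap genes. By limma's moderated F test over the times, 8 of the 32 members (25.0%) passed an adjusted p of 0.05, beside 48.4% of all 12944 genes tested. They were the alpha-ring gene Psma5, 1 of 14 core members, and 7 of 18 cap members: Psmd2, Psmd5, Psmd6, Psmd7, Psmd8, Psmd11 and Psmd14. Of the 8 lid members, 5 passed, and none of the 5 Psmc ATPases did. The median residual SD between arrays of a group was 0.0710 over the members and 0.121 over all genes. No member differed from 0 h by 2-fold at any time. Such differences were few among all 12944 genes as well: 499 passed the test with at least 2-fold at 24 h, 117 at 12 h and 11 to 46 at the earlier times.

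**Figure D1:**
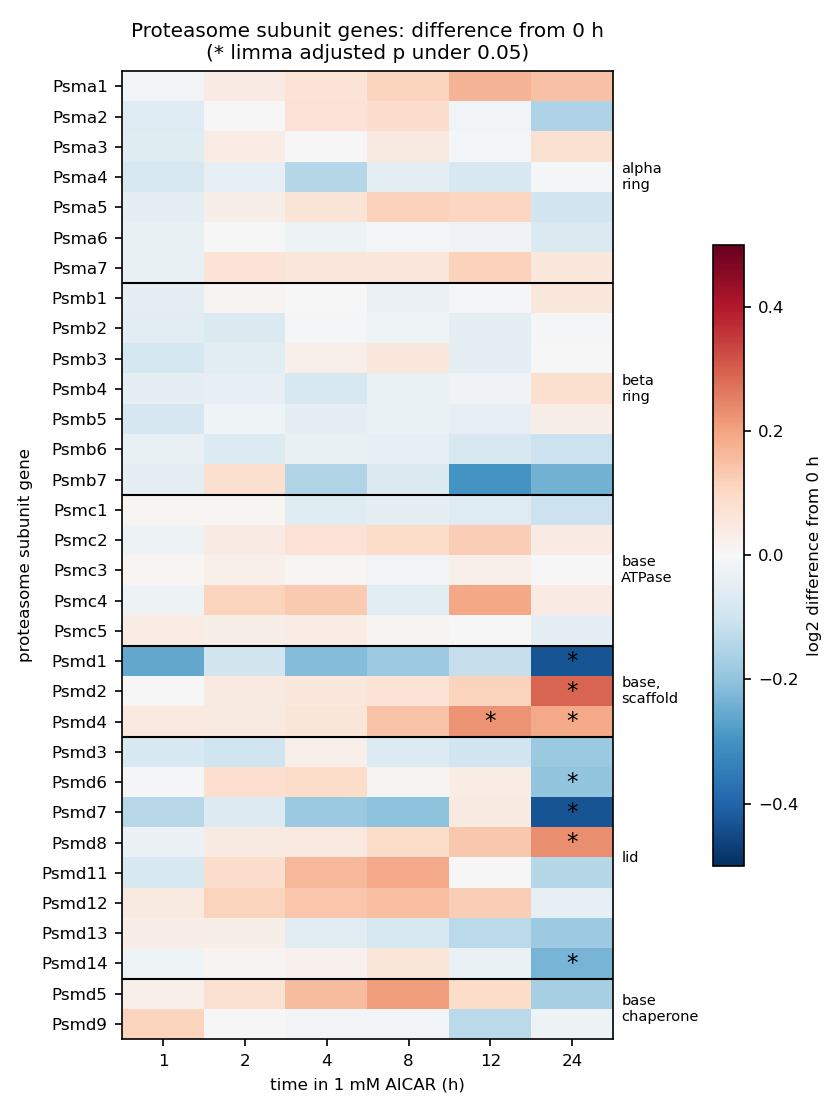
Difference of group means from 0 h (log2, colour) for the 32 tested subunit genes (rows, by subcomplex) at each time in 1 mM AICAR (columns); stars mark a limma adjusted p under 0.05. Stars fall on cap genes alone, 1 at 12 h and 7 at 24 h, and the darkest blue cells are Psmd1 and Psmd7 at 24 h (both -0.43).

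During the first hours no subunit gene passed the test. At 1 h, where 0.00773% of all genes were called higher and 0.471% lower by limma, none of the 32 members was called, and none had an unadjusted p under 0.05. At 2 h, where 0.471% were called higher and 0.997% lower, the counts were again 0, and 0 at an unadjusted p under 0.05. At 4 h, with 5.18% of all genes higher and 6.90% lower, no member was called, while 2 were higher and 1 lower at an unadjusted p under 0.05. At 8 h, with 7.49% higher and 2.84% lower, none was called, and 2 were higher and 1 lower at an unadjusted p under 0.05. Of all 12944 genes, limma's unadjusted p under 0.05 gave 168 higher and 554 lower at 1 h and 621 and 708 at 2 h. It gave 1279 higher and 1871 lower at 4 h and 2043 and 935 at 8 h. All 14 core members had a negative difference at 1 h, with a median of -0.050 on the log2 scale. That rested on AICAR 1h replicate 3, in which the core median was -0.19 and the cap median -0.13: without this array the core median at 1 h was 0.0059.

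At 12 h Psmd4 was the single member called. Psmd4 encodes a base subunit that binds ubiquitin chains. Its log2 signal was 11.27, 11.19 and 11.31 in the controls, 11.34, 11.40 and 11.19 at 1 h, 11.26, 11.24 and 11.41 at 2 h, and 11.28, 11.35 and 11.34 at 4 h. It was 11.38 and 11.43 at 8 h, 11.59, 11.35 and 11.51 at 12 h, and 11.47, 11.47 and 11.41 at 24 h. Every array from 8 h on lay above the 3 controls. The difference from 0 h was 0.22 ± 0.074 (SE) at 12 h (limma adjusted p = 0.0342) and 0.19 ± 0.074 at 24 h (adjusted p = 0.0466), 1.17-fold and 1.14-fold. The counts of 1 higher and 0 lower compare with 14.8% and 8.88% of all genes at 12 h. A second Psmd4 probe set differed from 0 h by 0.25 at 24 h and another, dimmer one by -0.12. With the mean of all its probe sets the difference at 24 h was 0.11 and did not pass (adjusted p = 0.457), nor did it after median centring (0.10, adjusted p = 0.239) or without the filter (adjusted p = 0.0529), and the 24 h call was also lost in 15 of the 20 fits that each left out an array, with adjusted p up to 0.163. The 12 h call was lost without control replicate 1 or 2 or AICAR 12h replicate 1 or 3 (limma adjusted p up to 0.171), with all probe sets averaged (0.417) and after median centring (0.0834).

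At 24 h, 3 subunit genes were higher and 4 lower than at 0 h, all 7 in the cap. Psmd2, Psmd8 and Psmd4 rose, and Psmd7, Psmd1, Psmd14 and Psmd6 fell. Of all genes, 25.8% were higher and 14.6% lower at this time. Among the members these shares were 9.38% and 12.5%. By replicate number the arrays of 0 h, 12 h and 24 h deviated together, and with that number as a block 6 members were lower: Psmd5 (-0.17, limma adjusted p = 0.0327, against 0.0506 without the block) and the core gene Psma2 (-0.16, adjusted p = 0.0452, against 0.0591) also passed. With each array centred on its median the split was 1 higher and 13 lower, and over all genes the share of calls that were higher moved from 63.9% to 48.4%.

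**Figure D2:**
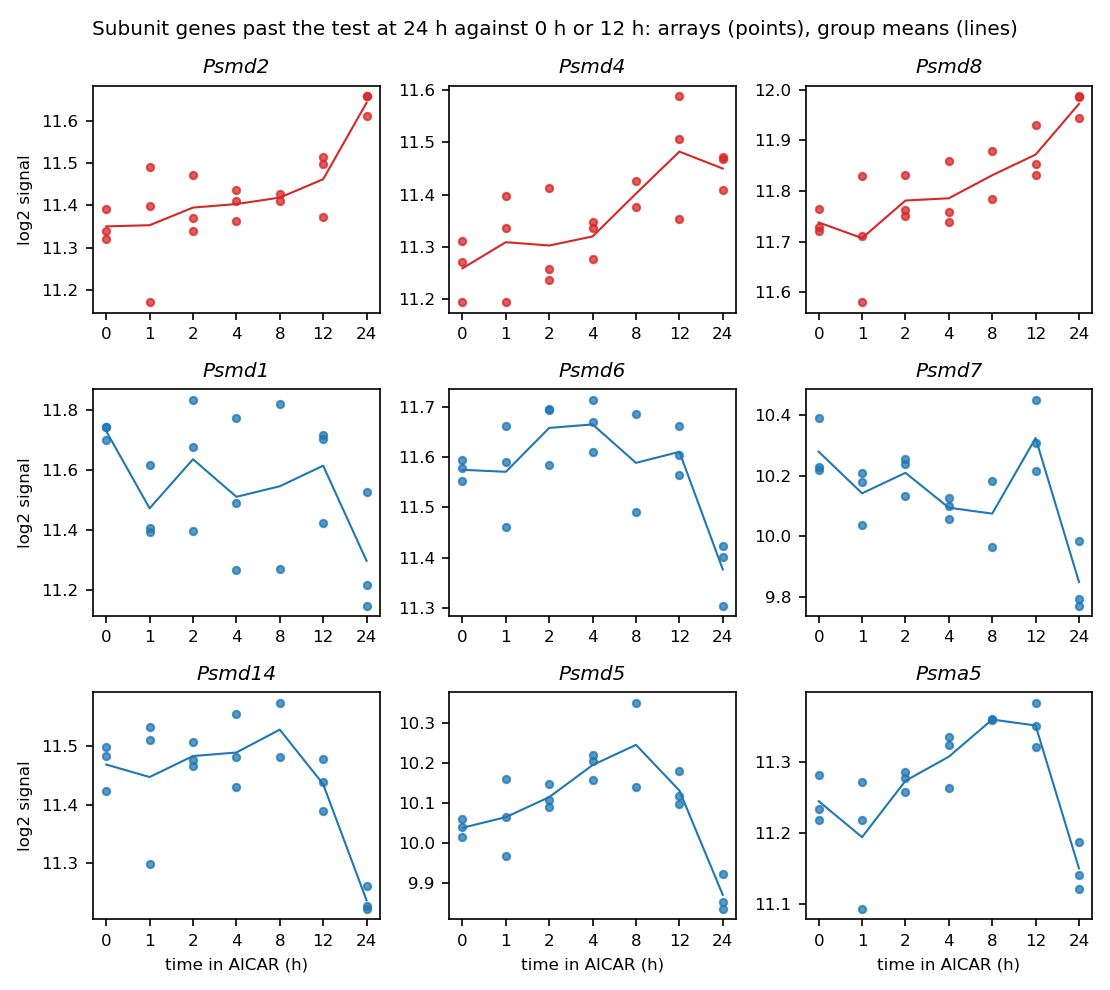
Log2 signal (vertical axes, each with its own range) of 9 subunit genes against time in AICAR (h); points are single arrays and lines join group means. The arrays at 24 h lie above the controls for Psmd2, Psmd4 and Psmd8 and below them for the other 6 genes.

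The largest rise was that of Psmd2, the base scaffold that holds shuttle proteins and a deubiquitinase. Its signal was 11.39, 11.34 and 11.32 in the controls, 11.40, 11.49 and 11.17 at 1 h, 11.34, 11.37 and 11.47 at 2 h, and 11.36, 11.41 and 11.44 at 4 h. Later it was 11.43 and 11.41 at 8 h, 11.50, 11.37 and 11.51 at 12 h, and 11.61, 11.66 and 11.66 at 24 h. The 3 arrays at 24 h were the highest of the 20. The rise at 24 h was 0.29 ± 0.074 (SE), 1.22-fold, with a 95% interval of 0.14 to 0.45 (limma adjusted p = 0.00354). Psmd2 has a second probe set, at background (mean 4.57); averaged with it, the difference was 0.15 and did not pass (adjusted p = 0.0704).

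Psmd8, a lid subunit, rose in the same way. Its values were 11.76, 11.73 and 11.72 in the controls, 11.71, 11.83 and 11.58 at 1 h, 11.75, 11.76 and 11.83 at 2 h, and 11.74, 11.86 and 11.76 at 4 h. They were 11.88 and 11.78 at 8 h, 11.93, 11.83 and 11.85 at 12 h, and 11.99, 11.98 and 11.94 at 24 h. All arrays from 8 h on lay above the controls, with those at 24 h highest. The difference at 24 h was 0.23 ± 0.066 (SE), 1.18-fold (limma adjusted p = 0.00814), and 0.15 after median centring (adjusted p = 0.0551).

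Psmd7 fell the most. It encodes the catalytically inactive lid subunit that pairs with Psmd14. Its signal was 10.22, 10.23 and 10.39 in the controls, 10.04, 10.21 and 10.18 at 1 h, 10.26, 10.13 and 10.24 at 2 h, and 10.10, 10.06 and 10.12 at 4 h. It was 10.18 and 9.97 at 8 h, 10.45, 10.31 and 10.21 at 12 h, and 9.79, 9.98 and 9.77 at 24 h. At 24 h every array lay below every control and every array at 12 h. The difference was -0.43 ± 0.084 (SE) from 0 h, 0.742-fold (limma adjusted p = 0.000404), and -0.48 from 12 h (adjusted p = 0.000578). The gene's 2 other probe sets were dim, with differences at 24 h of -0.10 and 0.04; averaged over all of them the difference was -0.16 from 0 h (adjusted p = 0.0287) and -0.13 from 12 h (adjusted p = 0.130).

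Psmd14, the lid's deubiquitinase, had 11.50, 11.48 and 11.42 in the controls, 11.53, 11.51 and 11.30 at 1 h, 11.47, 11.47 and 11.51 at 2 h, and 11.48, 11.55 and 11.43 at 4 h. Its values were 11.57 and 11.48 at 8 h, 11.48, 11.39 and 11.44 at 12 h, and 11.26, 11.22 and 11.23 at 24 h. The arrays at 24 h were the 3 lowest of the 20. The difference from 0 h was -0.23 ± 0.066 (SE), 0.852-fold (limma adjusted p = 0.00867). The difference from 12 h was -0.20 (adjusted p = 0.0428), a call lost in 11 of the 20 fits with an array left out, with adjusted p up to 0.126.

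Psmd6, a further lid subunit, had 11.58, 11.59 and 11.55 in the controls, 11.59, 11.66 and 11.46 at 1 h, 11.58, 11.70 and 11.69 at 2 h, and 11.61, 11.71 and 11.67 at 4 h. It stood at 11.49 and 11.69 at 8 h, 11.56, 11.66 and 11.60 at 12 h, and 11.30, 11.42 and 11.40 at 24 h. All 3 arrays at 24 h were lower than every other array. The difference was -0.20 ± 0.070 (SE) from 0 h (limma adjusted p = 0.0292) and -0.23 from 12 h (adjusted p = 0.0234). Its second probe set differed from 0 h by -0.30 at 24 h. The 24 h call was lost without any one of the 3 controls or without AICAR 24h replicate 1 (-0.16, limma adjusted p = 0.123, without the last). The 24 h against 12 h call was lost without AICAR 12h replicate 2 or 3 or AICAR 24h replicate 1 (adjusted p up to 0.102).

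Psmd1, the other base scaffold, varied more between arrays of one time than the genes above. Its values were 11.70, 11.74 and 11.74 in the controls, 11.62, 11.39 and 11.41 at 1 h, 11.83, 11.68 and 11.40 at 2 h, and 11.77, 11.27 and 11.49 at 4 h. They were 11.82 and 11.27 at 8 h, 11.70, 11.72 and 11.42 at 12 h, and 11.53, 11.15 and 11.22 at 24 h. The 24 h arrays lay below the controls but overlapped those of 4 h. By array, the actin 3′ minus 5′ difference was 0.445, 0.689 and 0.544 at 4 h, 0.435 and 0.646 at 8 h, and 0.503, 0.557 and 0.549 at 24 h. The array with the largest actin difference had the lowest Psmd1 signal at 1, 4, 8, 12 and 24 h. At 0 and 2 h it did not. The part of RNA quality in the Psmd1 differences was not tested. The Psmd1 difference at 24 h was -0.43 ± 0.15 (SE), 0.742-fold (limma adjusted p = 0.0291). It did not pass after quantile normalization (adjusted p = 0.0674) or without any one control, AICAR 24h replicate 2 or AICAR 24h replicate 3, with an adjusted p of 0.120 without AICAR 24h replicate 2. Without the replicate 3 arrays of all groups it was 0.145. With the replicate number as a block, the 24 h against 12 h difference of -0.32 passed (limma adjusted p = 0.0401), which without the block had 0.170.

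The lid was the subcomplex with most falls at 24 h. Of its 8 members, 3 fell, Psmd8 rose and 4 did not pass, and 7 of the 8 differences were negative, with a median of -0.18. These falls were 37.5% of the lid members, beside 14.6% of all genes called lower, and that of Psmd6 rested on each control as given above. The 4 that did not pass were Psmd3 (-0.18), Psmd11 (-0.14), Psmd12 (-0.04) and Psmd13 (-0.18). For Psmd11, the lid subunit that joins core and cap, the probe set used and a second, dimmer set with a mean of 10.0 differed in size at 24 h, at -0.14 and -0.66, and in sign at 4 h (0.17 and -0.33) and 8 h (0.19 and -0.21). The median over all 18 cap members was -0.078, beside 0.010 over all genes, and 6 of the 18 differences were positive. By array, the cap median at 24 h was -0.089, -0.027 and -0.13, and in the controls it lay between -0.024 and 0.024. The cap median remained negative under every scaling tried (-0.067 with quantile normalization and -0.17 with median centring). Of the 5 ATPase genes, Psmc1, Psmc2, Psmc3, Psmc4 and Psmc5, differences at 24 h ran from -0.11 to 0.04, and none passed at any time. The 11 cap members not called at 24 h all had 95% intervals within 0.5 of 0.

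**Figure D3:**
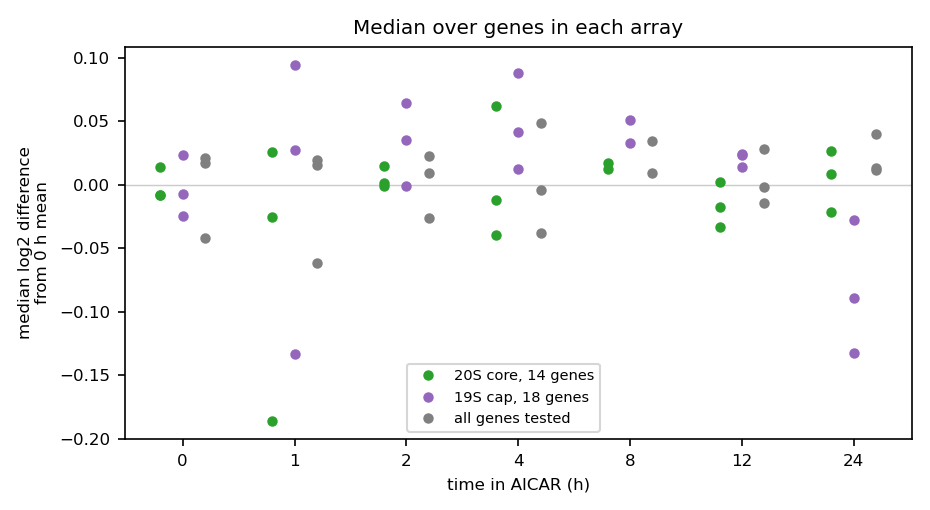
Median log2 difference from the 0 h mean (vertical axis) in each array, over 14 core genes, 18 cap genes and all genes tested, against time in AICAR (h). At 24 h the cap points (-0.13 to -0.027) lie below the core points (-0.021 to 0.027), and the low core and cap points at 1 h are AICAR 1h replicate 3.

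In the direct comparison of 24 h with 12 h, whose difference holds no control array while its error is pooled over all 7 groups, 0 members were higher and 5 lower, beside 12.6% and 7.30% of all genes. By limma's unadjusted p under 0.05, 1 of the 32 was higher and 8 lower, beside 2401 and 1476 of the 12944 genes. The 5 called lower were Psmd7, Psmd6 and Psmd14, described above, and Psmd5 and Psma5. Psmd5 encodes a chaperone that assembles the cap's base and leaves the finished particle. Its signal was 10.06, 10.04 and 10.01 in the controls, 10.06, 10.16 and 9.97 at 1 h, 10.15, 10.11 and 10.09 at 2 h, and 10.20, 10.22 and 10.16 at 4 h. It reached 10.35 and 10.14 at 8 h and was 10.18, 10.10 and 10.12 at 12 h and 9.85, 9.92 and 9.84 at 24 h. From 2 h to 12 h each array lay above the controls, and at 24 h each lay below them. The difference between 24 and 12 h was -0.26 ± 0.066 (SE) (limma adjusted p = 0.00869). That from 0 h at 8 h was 0.21, which did not pass. When only these 2 groups were fitted, Psmd7 alone of the 5 passed, and the limma adjusted p-values of the others were 0.0542 for Psmd5, 0.0828 for Psmd6, 0.0993 for Psma5 and 0.106 for Psmd14.

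Psma5, an alpha-ring subunit, was the single core member called in any comparison of the main fit, on the deposited values without the replicate block. It had 11.23, 11.22 and 11.28 in the controls, 11.22, 11.27 and 11.09 at 1 h, 11.28, 11.26 and 11.29 at 2 h, and 11.33, 11.32 and 11.26 at 4 h. Its values were 11.36 and 11.36 at 8 h, 11.38, 11.35 and 11.32 at 12 h, and 11.12, 11.14 and 11.19 at 24 h. The arrays at 8 and 12 h were all above the controls and those at 24 h all below. The difference between 24 and 12 h was -0.20 ± 0.058 (SE), 0.870-fold (limma adjusted p = 0.0188), and that between 24 and 0 h was -0.09, which did not pass. The 24 h against 12 h call was lost in 4 fits with an array left out, those without AICAR 12h replicate 1 or 2 or AICAR 24h replicate 1 or 2 (adjusted p up to 0.0687). Highest at 8 h and lowest at 24 h was the order of group means for Psma2, Psma5, Psmd5, Psmd11, Psmd12 and Psmd14, on the probe sets used. In all, 11 of 18 cap members and 4 of 14 core members had their lowest mean at 24 h. Another 2 cap and 4 core members had their highest mean at that time. How often all genes show these orders was not counted, and 24 h was the time with most calls among all genes (25.8% higher and 14.6% lower).

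In the main fit, none of the 14 core genes was called higher or lower than 0 h at any time. At 24 h, 1 was higher (Psma1, 0.15) and 1 lower (Psma2, -0.16) by limma's unadjusted p under 0.05, with adjusted p of 0.0953 and 0.0591. Of all 12944 genes, 3763 were higher and 2243 lower by that unadjusted p. The median over the core was -0.0056, with quantile normalization 0.038 and with median centring -0.093, so its sign depends on the scaling. The 13 members lower at 24 h with median centring and the 6 higher with quantile normalization were not split into core and cap. Core genes may be among them. The alpha-ring differences ran from -0.16 to 0.15 and the beta-ring ones from -0.24 to 0.08. A missed threshold does not show that the genes did not change, but the 95% intervals bound the size: 13 of the 14 lay within 0.5 of 0, and the exception was Psmb7.

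The proteolytic subunits were followed in each array. Psmb5, the chymotrypsin-like site and the main target of proteasome inhibitor drugs, had 11.16, 11.16 and 11.14 in the controls, 11.13, 11.13 and 10.94 at 1 h, 11.09, 11.15 and 11.15 at 2 h, and 11.06, 11.20 and 11.05 at 4 h. It had 11.15 and 11.09 at 8 h, 11.12, 11.10 and 11.11 at 12 h, and 11.19, 11.18 and 11.17 at 24 h. The lowest array was AICAR 1h replicate 3. The 24 h difference was 0.03 ± 0.063 (SE), with a 95% interval of -0.10 to 0.16 (limma adjusted p = 0.787). Psmb6, the caspase-like site, had 11.62, 11.64 and 11.60 in the controls, 11.58, 11.73 and 11.44 at 1 h, 11.54, 11.48 and 11.63 at 2 h, and 11.50, 11.69 and 11.55 at 4 h. Later it had 11.55 and 11.61 at 8 h, 11.59, 11.47 and 11.56 at 12 h, and 11.44, 11.55 and 11.55 at 24 h. Its 24 h arrays lay below the controls. The difference of means was -0.11 ± 0.075 (SE), with a 95% interval of -0.26 to 0.05 (limma adjusted p = 0.305).

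Psmb7, the trypsin-like site, varied far more between arrays of a group. It had 9.35, 9.23 and 8.90 in the controls, 9.44, 9.01 and 8.87 at 1 h, 9.35, 9.40 and 8.96 at 2 h, and 9.38, 8.87 and 8.78 at 4 h. It had 9.31 and 8.87 at 8 h, 8.71, 9.31 and 8.55 at 12 h, and 9.14, 8.92 and 8.70 at 24 h. All times overlapped the controls, whose SD was 0.234. The difference at 24 h was -0.24 ± 0.21 (SE), with a 95% interval of -0.68 to 0.21 (limma adjusted p = 0.431). Between arrays of the same replicate number it was -0.21, -0.31 and -0.19, and with that number as a block it did not pass either (adjusted p = 0.198).

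The interferon-inducible counterparts of these 3 subunits, which are not among the 34, rose at 24 h. Psmb8, which replaces Psmb5, went from 7.92, 7.88 and 7.75 in the controls to 9.82, 9.78 and 9.69 at 24 h, a rise of 1.92 ± 0.11 (SE) or 3.78-fold (limma adjusted p = 6.57e-10). Psmb9, which replaces Psmb6, went from 5.87, 5.55 and 5.70 to 7.22, 7.10 and 6.82, a rise of 1.34 ± 0.13. Psmb10, which replaces Psmb7, went from 8.52, 8.45 and 8.30 to 9.03, 8.95 and 8.79, a rise of 0.50 ± 0.079. At 12 h Psmb8 had risen by 0.65 and Psmb9 by 0.51, and at 4 h Psmb10 had fallen, with a difference of -0.37. The Psmb9 call at 12 h was lost without AICAR 12h replicate 1 (0.39, limma adjusted p = 0.0624). None of these arrays at 24 h overlapped its controls. With all probe sets of each gene averaged, some of them at background, the rises at 24 h were 1.03 for Psmb8 and 0.76 for Psmb9. Whether the change of each gene differs from that of its constitutive counterpart was not tested.

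**Figure D4:**
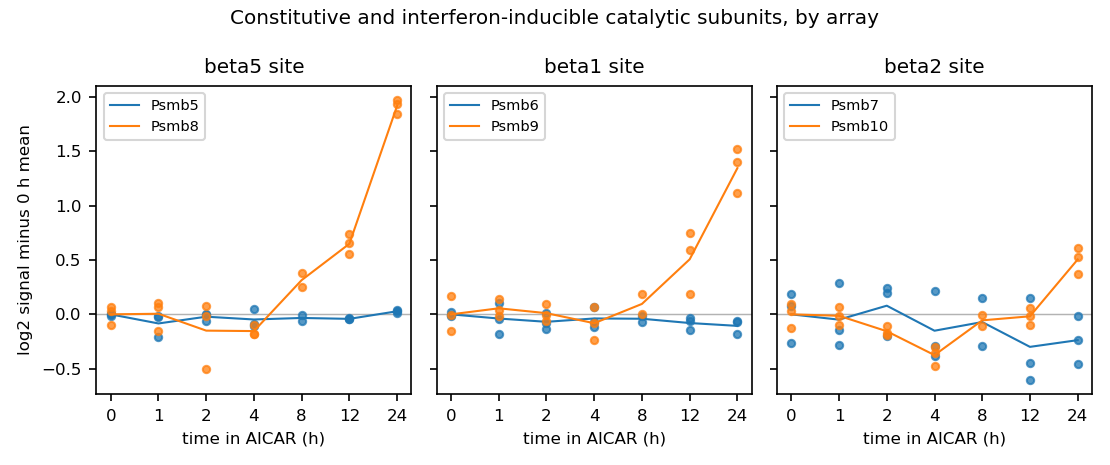
Log2 signal minus the 0 h mean for each proteolytic site: constitutive subunit (blue) and interferon-inducible counterpart (orange) against time in AICAR (h); points are arrays and lines group means. At 24 h the orange means stand at 1.92, 1.34 and 0.50 and the blue ones at 0.03, -0.11 and -0.24.

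Other genes of the pathway were taken from lists chosen for their known roles. Of 9 tested activators, inhibitors and proteasome-bound proteins, 3 rose and 1 fell at 24 h, which is 33.3% and 11.1% beside 25.8% and 14.6% of all genes. None was called at an earlier time, though with the replicate block Ube3c (0.18, limma adjusted p = 0.0189) and Ecpas (-0.36, adjusted p = 0.0331) passed at 12 h. Psme1 and Psme2, which form the interferon-inducible PA28 ring that opens the core, rose by 0.84 ± 0.076 and 0.62 ± 0.068 (SE). Ube3c, a ubiquitin ligase bound to the proteasome, rose by 0.59 ± 0.066 (0.23 with its probe sets averaged). Ecpas, which clamps core and cap together, fell by 0.53 ± 0.14. Their limma adjusted p-values were at most 0.00461. Not passing at 24 h were Psme3 (-0.15), Psmf1 (-0.11), Sem1 (0.11), Uchl5 (-0.08) and Usp14 (-0.0059).

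Of 5 tested assembly chaperones, 2 were lower at 4 h, 1 higher at 8 h, 2 higher at 12 h and 1 lower at 24 h. These are 40%, 20%, 40% and 20%, beside 6.90%, 7.49%, 14.8% and 14.6% of all genes called in the same direction. Psmg1, which with Psmg2 seeds the alpha ring, fell by 0.29 ± 0.060 (SE) at 24 h (limma adjusted p = 0.000796) and was -0.23 from 0 h at 4 h (adjusted p = 0.0163, lost in 3 of the 20 fits with an array left out). Its partner Psmg2 was lower at 4 h (-0.29) and higher at 12 h (0.21, which did not pass after median centring, at 0.16 with limma adjusted p = 0.0519). Psmg3, which with Psmg4 forms the other chaperone pair, was higher at 8 h (0.49) and 12 h (0.35) and had returned to 0.01 from 0 h at 24 h. Psmg4 (-0.01) and Pomp (0.06), the maturation factor of the core, did not pass at 24 h. From 12 to 24 h Psmg1 fell by 0.22 (limma adjusted p = 0.0133) and Psmg3 by 0.34 (limma adjusted p = 0.00425). That is 40% of the 5, beside 7.30% of all genes called lower. The Psmg1 call was lost without AICAR 24h replicate 3 (limma adjusted p = 0.0605).

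Of 7 tested genes of the NRF1 and NRF2 route, 1 rose and none fell at 24 h, which is 14.3% and 0% beside 25.8% and 14.6% of all genes. This was Syvn1, a ubiquitin ligase of the endoplasmic reticulum, with 0.45 ± 0.091 (SE) (limma adjusted p = 0.000603). With _x_ and _s_ probe sets, which can match several genes, left out, another Syvn1 probe set stood for it and this did not pass (0.21, adjusted p = 0.126). With the replicate block Syvn1 also passed at 12 h (0.23, limma adjusted p = 0.0285) and at 24 h against 12 h (0.22, adjusted p = 0.0403). At 12 h 3 of the 7 (42.9%, beside 8.88% of all genes) were lower: Nfe2l1, which encodes NRF1 (-0.30 ± 0.076), and the small Maf partners Maff (-0.68 ± 0.077) and Mafk (-0.38 ± 0.10, lost without control replicate 1, at -0.31 with limma adjusted p = 0.0530). From 12 to 24 h Nfe2l1 rose by 0.32 and Maff by 0.80 (28.6% of the 7, beside 12.6% of all genes called higher). At 24 h they differed from 0 h by 0.02 and 0.12, neither past the test. Without the replicate 3 arrays of all groups, neither Nfe2l1 call passed. The Nfe2l1 difference was then -0.29 at 12 h (limma adjusted p = 0.0534) and 0.26 at 24 h against 12 h (adjusted p = 0.0887). Nfe2l2, which encodes NRF2, differed by 0.09 at 24 h, with a 95% interval of -0.11 to 0.30. Mafg, the other small Maf gene, differed by -0.45 at 24 h, with an interval of -1.03 to 0.14, and did not pass. Of 4 tested ubiquitin carriers, the shuttle genes Ubqln2 and Ubqln4 fell by 0.46 (0.21 with its probe sets averaged) and 0.31 at 24 h, beside 14.6% of all genes called lower, and Ubqln1 (0.04) and Rad23b (-0.14) did not pass. The Ubqln4 call did not hold with the mean of all its probe sets (-0.24, adjusted p = 0.130) or in 5 of the 20 fits with an array left out. Uba6 and Zfand5, also on these lists, failed the filter, and the other genes of the lists were not analysed here.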

How the data were processed

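Total RNA from cells grown in dishes was labelled with biotin and hybridised to Affymetrix MG-430 PM array strips, per the labels' protocols. The deposited table holds log2 signal for 45141 probe sets; the authors' background correction, summary and normalization methods are unstated in the sources used here. It was used as deposited. The platform annotation names 28898 probe sets by 1 symbol. A gene was tested if its highest group mean exceeded 4.81, the 40th percentile of the table, which 12944 did. One limma 3.58.1 fit (lmFit, eBayes, R 4.3.3) over 7 groups with 13 residual degrees of freedom gave two-sided tests of each time against 0 h, of 24 h against 12 h and a moderated F test, with Benjamini-Hochberg adjustment over all genes tested within a comparison. The threshold was 0.05.

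Members and gene lists were chosen with earlier results of these data known. Values in every array are given for Psmb5, Psmb6, Psmb7 and, past the threshold, for the 4 largest rises and falls at 24 h, 12 h and 24 h against 12 h and the 2 largest at other times. Up to 4 genes per partner list are the largest changes at 24 h; other list members are given as values, and those named at other times were chosen after their values were seen. On simulated data with the real means and spreads of 12944 genes, 25 of 100 genes changed by 0.3 and 80 of 100 changed by 0.5 were recovered at 24 h against 0 h, and 5 of 110 genes called were unchanged. The 8 h comparison recovered 20 and 73 of 100. Far fewer genes changed in the simulation than were called in the real data at 24 h, which makes its adjusted threshold stricter. Alternatives were other normalizations, filters, probe set rules, variance models, a replicate block, an array spread covariate, stricter thresholds and leaving out arrays. Deviations of same-numbered arrays from their group means correlated at 0.137, 0.467 and 0.527 between 0 h and 12 h, at 0.221, 0.230 and 0.639 between 0 h and 24 h and at 0.399, 0.281 and 0.763 between 12 h and 24 h, so the numbers were taken to pair arrays there. At 1, 2, 4 and 8 h they ran from -0.295 to 0.540, not all above 0.1. This pairing comes from the data, as the labels give the numbers alone. The replicate 3 arrays, which gave the highest of these correlations, had interquartile ranges of 2.90 at 0 h, 2.84 at 12 h and 2.91 at 24 h. Those of replicates 1 and 2 at these times lay between 3.08 and 3.24. The part of this array-wide spread in the correlations was not tested. Tests are without the block unless stated. Python 3.11.15 with matplotlib 3.10.9 drew the figures.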

Additional observations from a re-analysis of the deposited data

Results flagged for a closer look

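For 5 subunit genes the change after 24 h differed from that after 12 h by limma's test of 24 h minus 12 h, which compares 2 time points and takes its error from all 7 groups. The difference was -0.48 for the lid gene Psmd7, -0.26 for the assembly chaperone gene Psmd5, -0.23 for the lid gene Psmd6, -0.20 for the alpha-ring gene Psma5 and -0.20 for the deubiquitinase gene Psmd14, each lower at 24 h. The Psmd14 call was lost without control replicate 1 (adjusted p = 0.0531) or 2 (0.0557). No subunit gene differed in the other direction past the threshold. Groups of 2 or 3 arrays are too small for a check for single stray values.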

How the results depend on the processing

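No member's difference past the threshold changed sign under any alternative. Among 24 h calls, Psmd14 and Psmd7 passed under all 14 alternatives and, with Psmd2 and Psmd8, in all 20 fits that left out an array. Quantile normalization raised the higher counts to 2 (8 h), 6 (12 h), 6 (24 h) and 1 (24 h against 12 h) and the F test count to 14, with core medians of 0.0093 (8 h), 0.012 (12 h) and 0.038 (24 h) and cap medians of 0.034 (8 h) and 0.060 (12 h). Median centring gave 1 higher at 4 h, 0 at 12 h and 1 at 24 h, 1 lower at 12 h and 13 at 24 h, core medians of 0.033 (2 h), -0.055 (8 h), -0.072 (12 h), -0.093 (24 h) and 0.011 (24 h against 12 h) and cap medians of 0.084 (4 h), -0.027 (8 h), -0.023 (12 h) and -0.17 (24 h). The mean of a gene's probe sets gave 0 higher at 12 h, 1 higher and 7 lower at 24 h, a core median of -0.025 at 8 h and a cap median of 0.0012 at 12 h. Trended and robust variance gave 1 higher at 8 h and 2 at 12 h. Array weights, whose estimation stopped before converging, gave 1 lower at 2 h, 6 higher and 5 lower at 4 h, 1 higher at 8 h, 5 at 12 h, 9 lower at 24 h, 1 higher at 24 h against 12 h, 18 by the F test and a cap median of 0.016 at 12 h. The array spread as a covariate gave 1 higher at 8 h, 1 lower at 12 h, 8 lower at 24 h and a core median of -0.0084 at 8 h. An adjusted p under 0.01 left 0 higher at 12 h, 2 lower at 24 h, 2 lower at 24 h against 12 h and 3 by the F test, since fewer genes pass a stricter threshold. Fitting only the groups compared, with fewer arrays, gave 0 higher at 12 h and 1 lower at 24 h against 12 h.

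With the replicate number as a block, counts at 24 h were 3 higher and 6 lower, those at 24 h against 12 h 0 higher and 6 lower, 9 members passed the F test, and the core median at 8 h was -0.020. The block lost no call of a member or partner gene at 12 h, 24 h or 24 h against 12 h, and its added calls are given with their genes. Added after seeing the data, omitting the 2 arrays of highest median gave a core median of -0.0094 at 2 h. Leaving out all replicate 3 arrays gave 0 higher at 12 h, 2 lower at 24 h, 2 lower at 24 h against 12 h, 4 by the F test, core medians of -0.013 (2 h), -0.0092 (8 h), -0.040 (12 h) and 0.019 (24 h) and cap medians of -0.0020 (8 h) and 0.045 (12 h). The causes of these shifts were not tested.

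Leaving out each array in turn gave 0 to 1 members higher (8 h), 0 to 2 (12 h), 2 to 4 (24 h) and 0 to 1 (24 h against 12 h), 2 to 6 lower at 24 h and 2 to 5 at 24 h against 12 h, and 3 to 9 by the F test. The lower count at 24 h was 2 without any one control, and the F count was 3 without any one array of 24 h. Core medians lay between -0.10 and 0.0059 (1 h), -0.016 and 0.010 (2 h), -0.046 and 0.018 (4 h), -0.014 and 0.017 (8 h), -0.033 and -0.0050 (12 h), -0.0092 and 0.024 (24 h) and 0.010 and 0.050 (24 h against 12 h). Cap medians lay between -0.051 and 0.060 (1 h), 0.018 and 0.060 (2 h), 0.024 and 0.072 (4 h), -0.0020 and 0.051 (8 h), 0.014 and 0.043 (12 h), -0.11 and -0.048 (24 h) and -0.100 and -0.069 (24 h against 12 h). On simulated data with 2 or 3 arrays a group, changes of 0.3 were mostly missed. Only 110 genes were called there at 24 h against 0 h, beside 3342 higher and 1887 lower in the real data. The adjusted threshold was therefore stricter in the simulation. The median residual SD of the members was also smaller, at 0.0710 beside 0.121 over all genes. The simulation thus does not tell how often a member's change of 0.3 is missed.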
